A study of Mus musculus with 2 samples.

Results

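The genes described here are 3 immediate-early response genes, Ier2, Ier3 and Ier5, and 5 members of the BTG/TOB antiproliferative family, Btg1, Btg2, Btg3, Tob1 and Tob2. They were measured in RNA of cells labelled GT1-7, a mouse neuronal line that was immortalised from the hypothalamus. The GnRH group (1 array) had 50 nM of the peptide gonadotropin-releasing hormone (GnRH) for 30 min, and the vehicle group (1 array) had DMSO for 30 min. Both arrays were 1-colour (Cy3) and their files carry the same slide code. No genetic change is named for either group. The free-text description of both samples names bradykinin and A549 cells instead, and the groups follow the treatment labels. All array probes whose gene name equals a listed member were taken, which gave 10 probes for the 8 genes, of 35019 distinct names on the array. The list was selected on the differences between the same 2 arrays, known from earlier work on these data, so those differences are a description and support nothing. Each group has 1 array, so no test could be run, and precision is limited by that number.

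IER genes are switched on quickly and transiently by growth factors and hormones that act through MAP kinases, without new protein synthesis. Ier2 encodes a small nuclear protein, Ier3 (also called IEX-1) a regulator of survival and of ERK signalling, and Ier5 a relative of Ier2 that acts on the heat shock factor HSF1 together with the phosphatase PP2A. BTG and TOB proteins share an N-terminal domain that binds the CNOT7 and CNOT8 deadenylases of the CCR4-NOT complex. Through it they shorten poly(A) tails of messenger RNAs and restrain cell-cycle entry. Btg2 (also called TIS21 or PC3) is the member best known as an immediate-early gene and as a p53 target, while Tob1 and Tob2 also bind poly(A)-binding protein.

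The probes are 60 bases long, printed 1 spot each, and positions are those of the files in build mm9. Exons and untranslated regions are left unassigned, since no mm9 gene models were used. The 3 probes shown here, for Ier2, Ier5 and Tob1, are examples. They lie at chr8:87186214-87186273 (minus strand), chr1:156945765-156945824 (minus strand, the brighter of 2 Ier5 probes) and chr11:94075956-94076015 (plus strand).

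Ier2 probe: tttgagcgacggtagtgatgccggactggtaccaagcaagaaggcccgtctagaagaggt

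Ier5 brighter probe: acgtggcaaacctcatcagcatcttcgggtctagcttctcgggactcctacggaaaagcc

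Tob1 probe: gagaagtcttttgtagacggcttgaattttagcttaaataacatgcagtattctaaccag

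Every one of the 10 member probes was well above background on both arrays by the scanner software's own mark, none was saturated, and none was marked as an outlier. Local background around their spots was 63 to 75 intensity units on either array. Signals below are the software's processed intensity, background-subtracted, with its own error. Log2 differences are GnRH minus vehicle after each array was scaled to its 75th percentile (541 on the GnRH array and 578 on the vehicle array), with the error of both arrays combined. That error is technical and mostly the software's multiplicative setting of 0.1, so it says nothing of the spread between cultures. RNA came from whole cultures, so more cells expressing a gene and more RNA per cell cannot be told apart.

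Ier2, Btg2 and Ier3 were at least 2-fold higher in the GnRH array, Tob1 was between 1.5-fold and 2-fold higher, and Tob2, Ier5, Btg1 and Btg3 differed by less than 1.5-fold. Of the 8 members, 3 were thus at least 2-fold higher, while the share among all 21219 measured genes (those well above background on each array) was 0.311%. At 1.5-fold or more the count was 4 of 8 members, against 1.19% of all genes. None of the 8 was at least 2-fold lower, and 0.132% of all genes were. Since the members were chosen on this contrast, nothing is read from these shares. The median log2 difference was 0.51 over the 8 members and -0.01 over all genes. All 8 gene values were above 0, as were 47.5% of all genes.

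**Figure D1:**
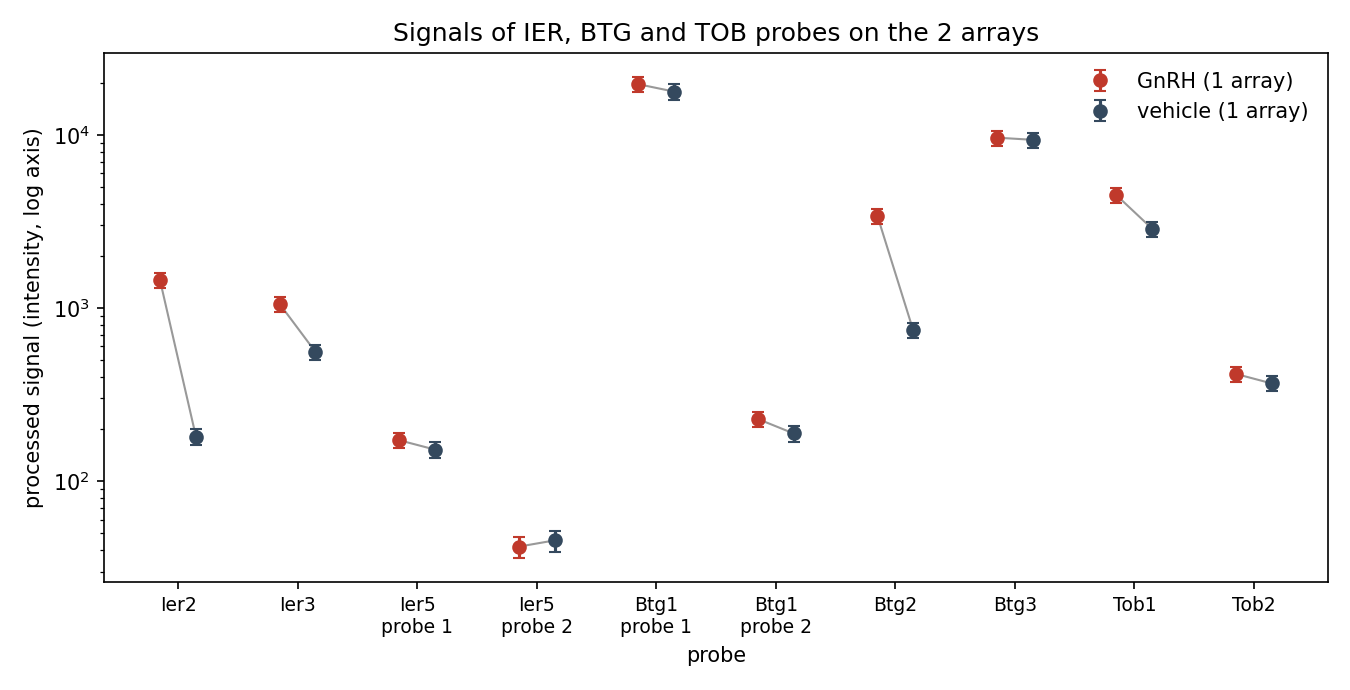
Processed signal (intensity, log axis) of each of the 10 probes on the GnRH array (left point) and the vehicle array (right point), with bars for the scanner software's error. Ier2 and Btg2 are far apart between the arrays (1441 and 181 for Ier2, 3402 and 742 for Btg2), Ier3 and Tob1 less so, and the points of the other probes lie close together.

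Among the IER genes, Ier2 had a processed signal of 1441 ± 144 in the GnRH array and 181 ± 18.6 in the vehicle array (scanner error). It was 8.50-fold higher, a log2 difference of 3.09 ± 0.21, and ranked 12 of 21219 genes. Before any background was removed the same spots read 1302 in the GnRH array and 224 in the vehicle array. The vehicle spot therefore stood only moderately over its local background of 65, and the fold is sensitive to how background is removed. With normexp correction the log2 difference was 2.65 and with no correction it was 2.63, still over 2-fold and lower by more than the scanner error.

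Ier3 had 1055 ± 106 in the GnRH array and 557 ± 55.8 in the vehicle array. This put it 2.02-fold higher, at a log2 difference of 1.02 ± 0.20, and ranked it 63 of 21219 genes. It lies so close to 2-fold that its place past it depends on the processing. Across 9 other settings its log2 difference ran from 0.92 to 1.03, and under 3 of them (scaling by the median, normexp and no background correction) it lay under 2-fold.

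Ier5 had 2 probes whose starts lie 2235 bases apart. The brighter read 172 ± 17.5 in the GnRH array and 152 ± 15.6 in the vehicle array, a log2 difference of 0.27 ± 0.21. The dimmer probe, at chr1:156943530-156943589, read 41.9 ± 5.66 in the GnRH array and 45.5 ± 6.39 in the vehicle array, a difference of -0.02 ± 0.28. The probes differed from each other by 0.30 ± 0.35, within their combined scanner error. Over 9 settings, the reported one included, the brighter probe ran from 0.20 to 0.28 and the dimmer from -0.05 to 0.06, so the dimmer has no settled sign. Ier5 thus stood apart from Ier2 and Ier3 in these arrays, with neither probe reaching 1.5-fold.

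Of relatives of the IER genes outside the list, Ier5l, named for its likeness to Ier5, read 1195 in the GnRH array and 1039 in the vehicle array (log2 difference 0.30 ± 0.20). Ier3ip1, which encodes a protein that interacts with the Ier3 product and is not a relative by sequence, differed by 0.00 ± 0.20.

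Among the BTG genes, Btg2 had 3402 ± 340 in the GnRH array and 742 ± 74.3 in the vehicle array. It was 4.90-fold higher (log2 difference 2.29 ± 0.20) and ranked 20 of 21219 genes. Its probe lies at chr1:135972094-135972153 (minus strand). Over the same 9 settings the difference ran from 2.18 to 2.30, a narrower range than that of Ier2 (2.63 to 3.10).

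Btg1, the closest relative of Btg2, was read by 2 probes with starts 3287 bases apart. The brighter, at chr10:96082071-96082130, had 19574 ± 1957 in the GnRH array and 17734 ± 1773 in the vehicle array, a log2 difference of 0.24 ± 0.20. The dimmer, at chr10:96085358-96085417, had 228 ± 23.1 in the GnRH array and 188 ± 19.2 in the vehicle array, a difference of 0.37 ± 0.21. Both probes were thus slightly higher in the GnRH array, and they differed from each other by less than their combined error of 0.29. Over the 9 settings the brighter ran from 0.21 to 0.24 and the dimmer from 0.31 to 0.38, above 0 throughout. The Btg1 copies on the X chromosome gave no difference past 1.5-fold: Btg1c read 846 in the GnRH array and 811 in the vehicle array (0.16 ± 0.20), and Btg1b was below the call for background in both.

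Btg3 had 9615 ± 962 in the GnRH array and 9345 ± 935 in the vehicle array, a log2 difference of 0.14 ± 0.20. Its only probe cannot be assigned to Btg3 alone. The files place it on chromosome 17 (50839065 to 50839124), whereas RefSeq places Btg3 on chromosome 16. The probe's accessions name the Btg3 messenger and also a transcript that RefSeq lists as Gm7334, a transcribed pseudogene on chromosome 17. Its signal may therefore hold RNA of either locus. Btg3 is not among the 3 members at least 2-fold higher, so a setting without it could not change that count. Btg4, the remaining BTG gene, known from oocytes and testis, did not pass the background call on either (3.10 with GnRH and 3.66 with vehicle).

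Of the TOB genes, Tob1 had 4474 ± 447 in the GnRH array and 2858 ± 286 in the vehicle array. It was 1.67-fold higher, at a log2 difference of 0.74 ± 0.20, and ranked 120 of 21219 genes. Tob2, at chr15:81679488-81679547, had 416 ± 41.7 in the GnRH array and 366 ± 36.8 in the vehicle array, a difference of 0.28 ± 0.20. A further probe that the files describe as another Tob2 transcript (ENSMUST00000039199) carries no member's name and passed the background call on neither. Over the 9 settings Tob1 ran from 0.71 to 0.75 and Tob2 from 0.24 to 0.29, so the gap between them was kept.

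In the order of differences, Ier2 stood above Btg2 by 0.80, Btg2 above Ier3 by 1.28 and Tob1 above Tob2 by 0.46, each more than the combined scanner error of 0.29. Ier3 and Tob1 lay 0.27 apart, which is within that error. By that error the last 4, Tob2 (0.28), Ier5 (0.27), Btg1 (0.24) and Btg3 (0.14), could not be ordered, with gaps of 0.00 to 0.10 between neighbours. Over repeated spots of 262 probes, the standard deviation (SD) of a spot's log2 difference was 0.19 in the dimmest of 4 groups. It was 0.07, 0.05 and 0.04 in the others, in order of brightness. The gap of 0.27 between Ier3 and Tob1 was larger than all of these. That of 0.10 between Btg1 and Btg3, both bright, was larger than the SDs outside the dimmest group. This SD too says nothing of the spread between cultures.

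The scanner error treats every bright spot alike, so the spread of all genes at like signal gives a further scale. Genes outside the uneven areas described below were divided into 4 equal bands by mean signal. In the second band, which holds Ier2, Ier5 and Tob2, the central 95% of log2 differences ran from -0.31 to 0.31. In the third, with Ier3, Btg2 and Tob1, it ran from -0.18 to 0.22, and in the brightest, with Btg1 and Btg3, from -0.14 to 0.18. Ier2, Ier3, Btg2, Tob1 and Btg1 lay above the range of their band, and Ier5, Tob2 and Btg3 inside it. The small difference of Btg1 was thus above that range although it is close to its scanner error, while those of Ier5 and Tob2, of like size, belong to dimmer spots where genes vary more.

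**Figure D2:**
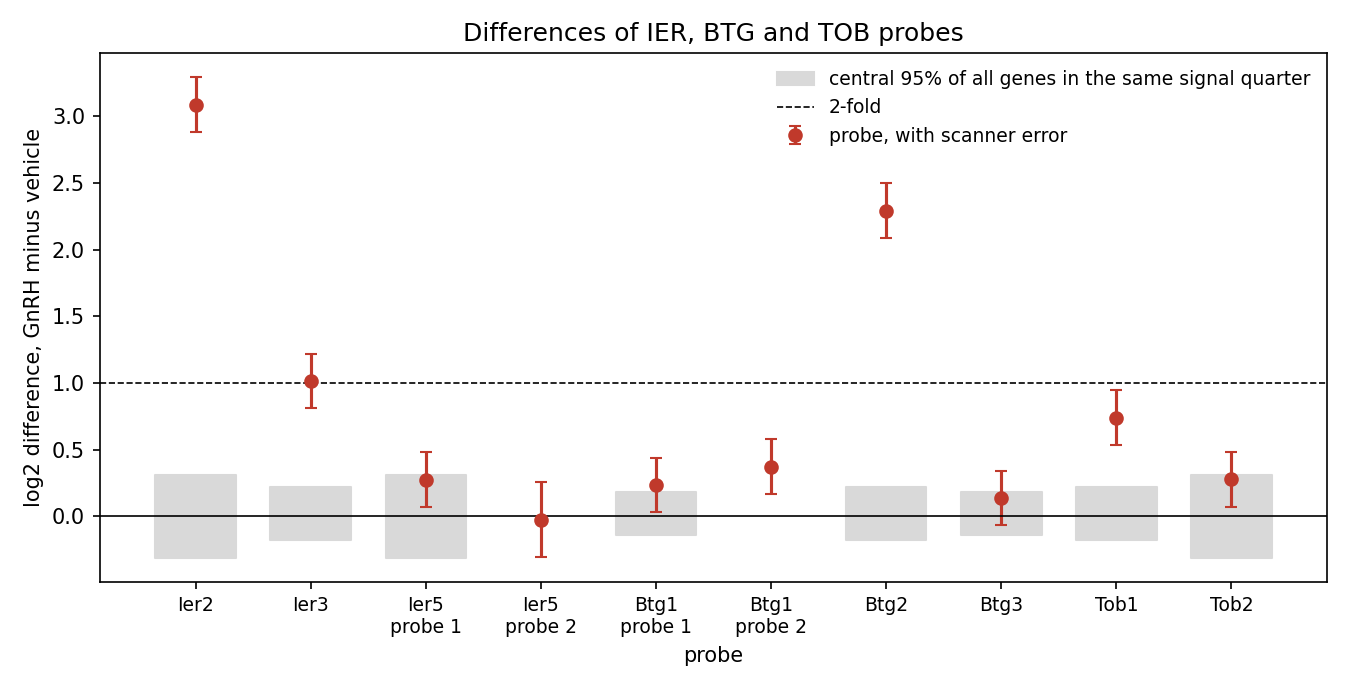
Log2 difference (GnRH minus vehicle) of each of the 10 probes with its combined scanner error, the 2-fold line dashed, and in grey the central 95% of all genes in the signal band of the gene's brightest probe. Ier2 (3.09), Btg2 (2.29), Ier3 (1.02), Tob1 (0.74) and the brighter Btg1 probe (0.24) lie above the grey range; the dimmer probe of Ier5 lies at -0.02.

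In 3 small areas, adjacent spots moved together between the arrays, and these areas held 0.976% of the non-control spots. None of the 10 member spots lay there, and the nearest, that of Ier2, was 10 spots away. The spots surrounding each member had median log2 differences between -0.16 and -0.01, so no member that stood high had surrounding spots that did. Leaving the areas out changed no member's count at 2-fold, while the genes at least 2-fold higher fell from 66 to 45. The shares and ranks given above include genes read in these areas.

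**Figure D3:**
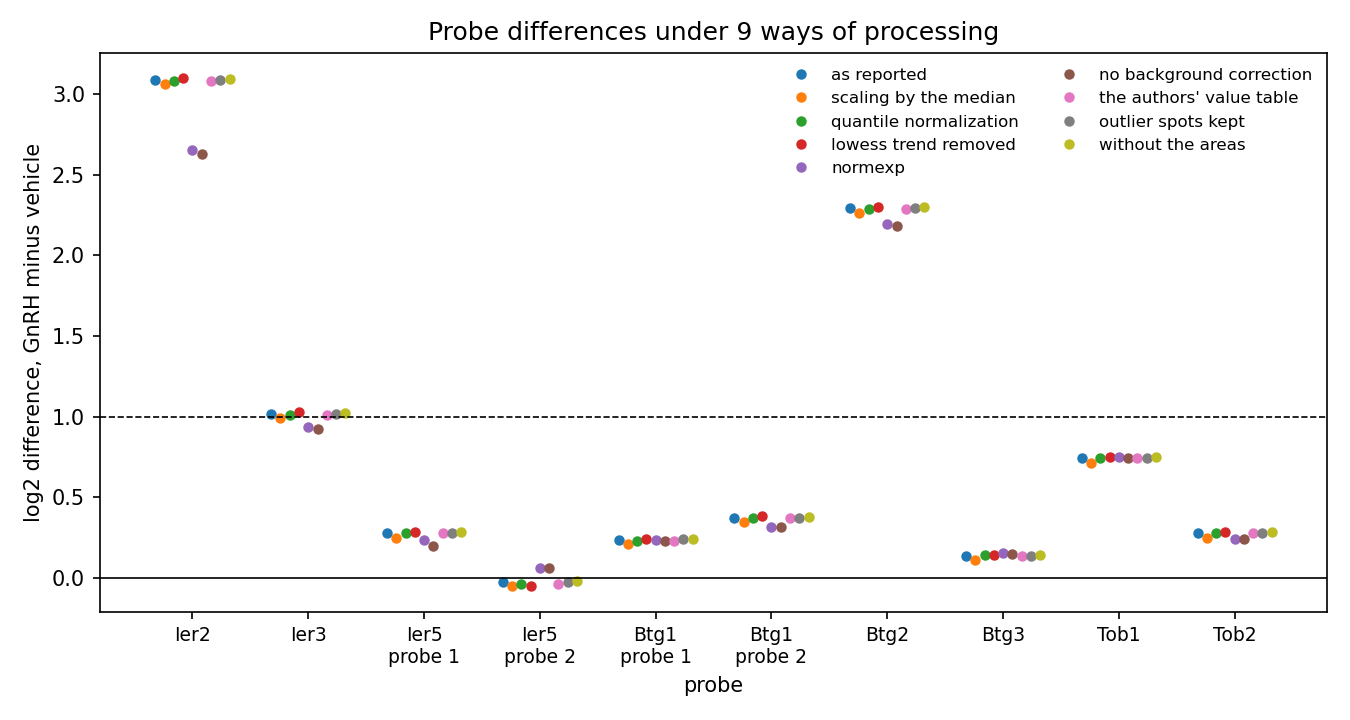
Log2 difference (GnRH minus vehicle) of each probe under the reported processing and 8 others, 1 point per setting, with the 2-fold line dashed. Points of a probe stay close together except for Ier2, which is at 2.65 with normexp and 2.63 with no background correction, while Ier3 straddles the 2-fold line (0.92 to 1.03).

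Over 2 arrays, likeness of pattern reduces to the size of the difference. Outside the areas, the genes with a symbol directly above and below Ier2 in that order were Junb (3.31 ± 0.23), an AP-1 subunit gene, and Arc (2.96 ± 0.20), whose product is a synaptic protein induced by neuronal activity. Beside Btg2 stood Ccn1 (2.59 ± 0.20), a matricellular protein gene, and Nr4a1 (2.27 ± 0.20), an orphan nuclear receptor gene. Beside Ier3 stood Prm2 (1.03 ± 0.30), a protamine gene of sperm, and Dtwd2 (1.01 ± 0.36). Prm2 and Dtwd2 are dim, at 29.9 and 18.4 units in the vehicle array.

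Upstream sequence was taken from RefSeq (GRCm38.p6) for 7 of the 8 members, all but Ier2. The 250 bases before an annotated transcript start are shown for Btg2, Ier3 and Tob1, the members with an entry that were highest, and for Btg1 as a relative that differed by less than 1.5-fold. Capitals mark matches to the cyclic AMP response element (CRE, TGACGTCA), to its core TGACG on either strand, to the kappaB site and to the TATA box (TATAAA). The windows of Btg2, Ier3 and Btg1 end directly before the RefSeq locus begins. The start used for Tob1 lies 1612 bases inside its locus, so its window does not precede the locus. The positions are chr1:134079156-134079405 (minus strand) for Btg2, chr17:35821463-35821712 (plus) for Ier3, chr11:94211204-94211453 (plus) for Tob1 and chr10:96616751-96617000 (plus) for Btg1.

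Btg2: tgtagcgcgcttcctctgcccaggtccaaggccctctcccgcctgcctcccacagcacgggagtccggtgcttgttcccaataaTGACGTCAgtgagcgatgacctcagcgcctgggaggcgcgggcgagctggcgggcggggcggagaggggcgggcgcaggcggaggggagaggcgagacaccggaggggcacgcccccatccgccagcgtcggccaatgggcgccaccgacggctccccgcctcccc

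Ier3: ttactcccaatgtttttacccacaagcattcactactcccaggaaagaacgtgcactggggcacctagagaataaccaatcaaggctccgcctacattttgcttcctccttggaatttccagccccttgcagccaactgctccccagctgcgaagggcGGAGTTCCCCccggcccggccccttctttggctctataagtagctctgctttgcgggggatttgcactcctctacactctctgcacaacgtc

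Tob1: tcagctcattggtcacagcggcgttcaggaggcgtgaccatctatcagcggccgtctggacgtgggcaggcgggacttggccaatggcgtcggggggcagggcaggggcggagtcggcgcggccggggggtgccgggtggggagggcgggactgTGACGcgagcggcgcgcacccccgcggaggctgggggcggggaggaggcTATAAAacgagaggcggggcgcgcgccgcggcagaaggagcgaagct

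Btg1: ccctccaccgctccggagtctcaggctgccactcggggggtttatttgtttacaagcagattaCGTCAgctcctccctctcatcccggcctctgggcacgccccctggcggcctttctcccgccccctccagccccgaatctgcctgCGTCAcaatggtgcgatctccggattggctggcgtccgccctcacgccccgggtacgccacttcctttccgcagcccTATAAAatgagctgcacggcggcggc

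Both strands were searched in 32851 upstream windows of 250 bases. Btg2 held a complete CRE, 166 to 159 bases before its start, and 1.55% of all windows held that motif. The core TGACG, which the complete motif contains, was also found in Tob1 (96 to 92 bases before the start) and at 2 places in Btg1 (187 to 183 and 103 to 99 bases), and 17.8% of all windows held it. A match to the kappaB site lay 92 to 83 bases before the start of Ier3, and another lay in 1 of the 2 Btg3 windows, the one whose start lies 371 bases inside the locus, against 7.25% of all windows. TATAAA was found in Tob1 and Btg1 and in 12.4% of all windows. None of the 7 members' windows held the CArG box of serum response factor (1.47% of all windows), the EGR site GCGGGGGCG (2.57%), the ETS site CCGGAAGT (2.88%) or the AP-1 site TGANTCA (6.75%). The CRE core was thus in windows of members that were 4.90-fold, 1.67-fold and 1.18-fold higher. A match is only a run of letters, and a lack of one says only that these letters are not in this window.

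**Figure D4:**
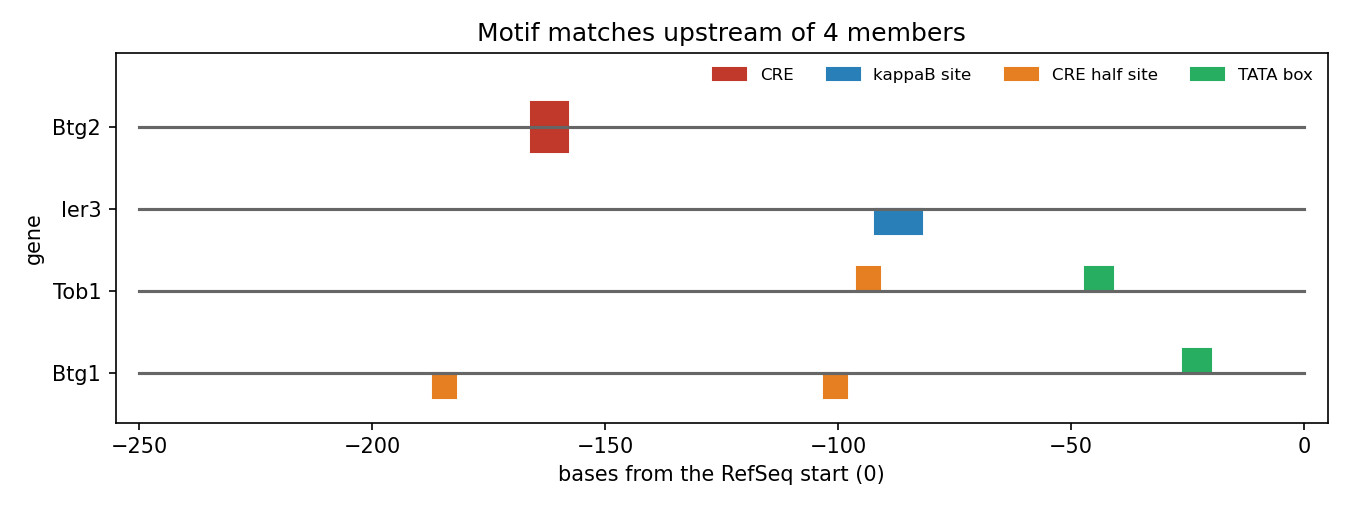
Motif matches in the 250 bases upstream of the RefSeq start (0 on the x axis, in bases) of Btg2, Ier3, Tob1 and Btg1; boxes above the line are on the gene's strand, boxes below it on the opposite strand, and the CRE, which reads the same on both, spans the line. Btg2 alone of the 4 holds the complete CRE, and the 3 core matches outside it lie in Tob1 and Btg1.

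Array probes within 20 kb of a member's probe numbered 27, of which 16 were measured on both arrays. The RIKEN cDNA probe 4930447I22Rik, 954 bases from the Ier2 probe, was the only one at least 2-fold higher (1.70 ± 0.36, but 0.60 with normexp and 0.59 with no background correction). The other 15 ran from -0.30 to 0.66 in log2 difference. Nacc1, which neighbours Ier2, read 2066 in the GnRH array and 2220 in the vehicle array on its brighter probe (-0.01 ± 0.20). Flot1, beside Ier3, differed by -0.01 ± 0.20. An interval named only by its coordinates, 15337 to 15475 bases from the Btg2 probe on the same strand, was read by 3 probes at differences of 0.04 to 0.19. Nacc1, Flot1 and that interval did not reach 1.5-fold, whereas 4930447I22Rik, nearest to the Ier2 probe, was 3.24-fold higher, more than Ier3. Whether neighbours and members differ for a shared reason was not tested. This search was chosen after the data were seen.

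The deadenylation list is wider than the CCR4-NOT complex that BTG and TOB proteins bind. Its 19 genes, for deadenylases, CCR4-NOT subunits and poly(A)-binding proteins, were all measured. Of these, 0 were at least 1.5-fold higher or lower, and the median log2 difference was 0.00. Among all 21219 measured genes, 253 (1.19%) were at least 1.5-fold higher and 187 lower. A count of 0 in so short a list therefore says little. Those farthest from 0 were Pan2 (-0.15 ± 0.20) and Pde12 (0.14 ± 0.20), both poly(A) nuclease genes, and Parn, another deadenylase gene (-0.09 ± 0.20). Cnot7 (0.00 ± 0.20) and Cnot8 (0.07 ± 0.20) are named for their binding to BTG and TOB proteins and were not taken by the rule.

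Of 17 genes for PP2A subunits and Hsf1, all were measured, with a median of -0.01. Of these, 0 were at least 1.5-fold higher, against 1.19% of all genes. The regulatory subunit gene Ppp2r5e was at least 2-fold lower (-2.44 ± 0.21), and its spot lay in one of the uneven areas. Outside them the farthest from 0 were Ppp2r3a (0.30 ± 0.22), Ppp2r1b (-0.18 ± 0.21) and the catalytic subunit gene Ppp2ca (0.09 ± 0.20).

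Of 24 G1 cell-cycle genes 21 were measured, 0 were at least 1.5-fold higher or lower, and the median was 0.04. With 1.19% of all genes at least 1.5-fold higher, counts of 0 in lists of this size say little. Ccne2, a cyclin E gene, was the highest (0.49 ± 0.25), on a dim probe at 49.1 in the GnRH array and 37.4 in the vehicle array. The E2F genes E2f5 (0.21 ± 0.21) and E2f4 (0.17 ± 0.21) followed. Ccnd1, Ccnd2 and Cdk6 could not be measured on both.

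The immediate-early transcription factors, known like the IER genes for fast induction, held 17 measured members of 22. Of these 9 were at least 2-fold higher, against 0.311% of all genes. Their median was 1.07, led by Egr1 (8.47 ± 0.22), Fosb (6.36 ± 0.22) and Fos (5.98 ± 0.07). The smaller error of Fos comes from averaging repeated spots of its probe, and says nothing of the spread between cultures. Egr2, another zinc-finger factor gene, is not in that count because it was well above background on the GnRH array alone, at 2186 in the GnRH array and 8.16 in the vehicle array. Against the lowest vehicle signal called well above background (16.3) it was at least 143-fold higher, and it is named here after its values were seen. The other 4 unmeasured genes passed that call on neither array. With no filter on dim probes the list's count was 10 and its median 0.84, and with the looser background call the count was 10. Whether the IER and BTG/TOB genes differ from that list was not tested.

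**Figure D5:**
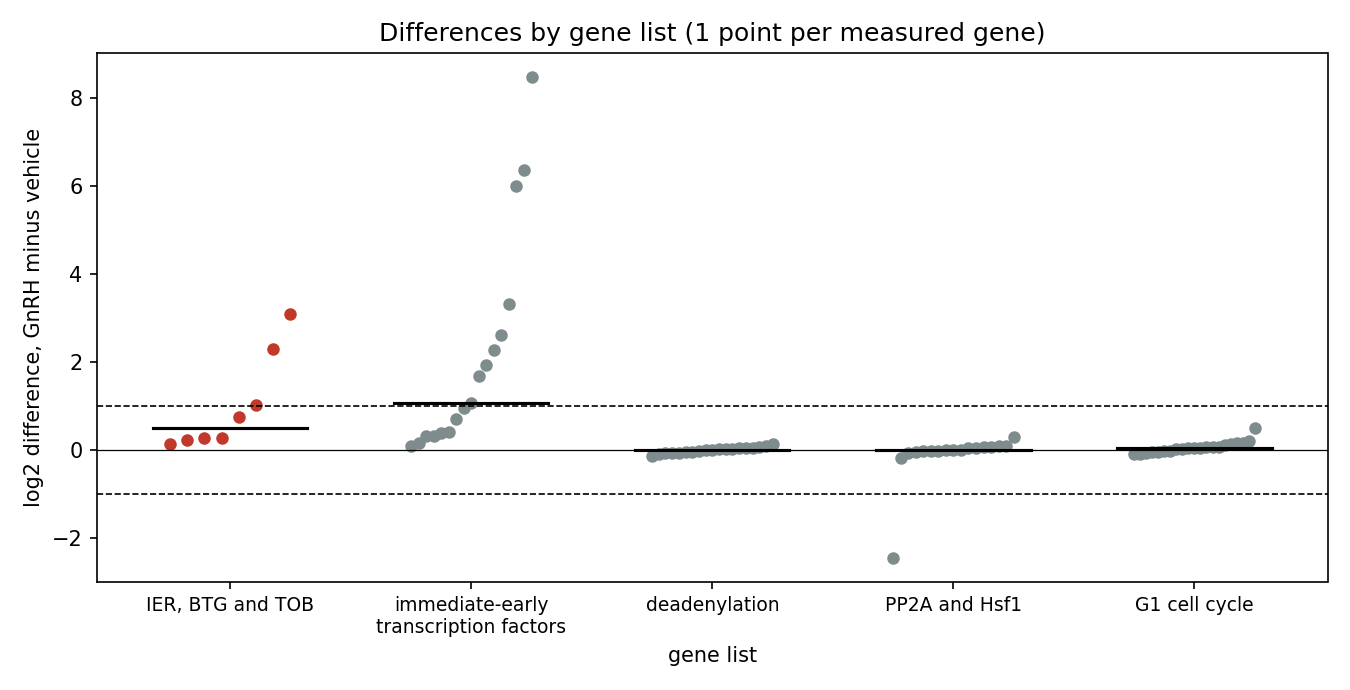
Log2 difference (GnRH minus vehicle) of each measured gene in the IER, BTG and TOB set and in 4 other lists, with black bars at the medians and dashed lines at 2-fold either way. The members (median 0.51) and the immediate-early transcription factors (1.07) spread upwards, the other lists stay near 0, and the single low point of the PP2A list is Ppp2r5e, whose spot lay in an uneven area.

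The labelled cell type was checked against its markers. Gnrh1, the defining gene of GnRH neurons, failed the background call on each, with its brighter probe at 10.3 in the GnRH array and 7.94 in the vehicle array. Six6 and Nhlh2 failed it too. Of the 8 GnRH neuron markers 5 were measured, and their summed signal was 2594 in the GnRH array and 2833 in the vehicle array. Most of that sum came from Gal, at 1434 in the GnRH array and 1534 in the vehicle array (-0.003 ± 0.20), and from Six3. Six3 read 1001 in the GnRH array and 1115 in the vehicle array (-0.06 ± 0.20). Kiss1r was dim, at 78.1 in the GnRH array and 81.9 in the vehicle array. The farthest from 0 were also dim, Dlx5 (0.62 ± 0.37) and Otx2 (-0.59 ± 0.23).

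Several gonadotrope genes were bright on both arrays. Gnrhr, the GnRH receptor gene, read 13656 in the GnRH array and 14861 in the vehicle array (-0.03 ± 0.20). Cga, the common alpha subunit gene of the gonadotropins, read 69481 in the GnRH array and 80508 in the vehicle array (-0.12 ± 0.20). Nr5a1 (-0.13 ± 0.20) and Pitx1 (-0.04 ± 0.20), transcription factor genes of gonadotropes, were also bright, while Lhb was dim at 72.1 in the GnRH array and 71.5 in the vehicle array and Fshb was not measured. The 6 measured of 7 gonadotrope markers summed to 160940 in the GnRH array and 182238 in the vehicle array. The cells are therefore called only by their label.

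Of 15 markers of glia, immune, vascular, fibroblast and other pituitary cells 7 were measured, at differences of -0.26 to 0.23. They summed to 6027 in the GnRH array and 7006 in the vehicle array, led by Mbp, a myelin gene (-0.13 ± 0.20). Aif1 of microglia (-0.26 ± 0.26) and Pecam1 of endothelium (0.23 ± 0.17) were dim. None of the 3 marker lists held a gene at least 2-fold higher or lower (0.311% and 0.132% of all genes were). Their part in the members' differences was not tested.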

How the data were processed

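Per the file headers, the deposited scanner files give every spot an intensity (linear) that Feature Extraction 10.7.1.1 had background-subtracted and detrended; the processing notes of the submitters name 9.5.1.1. The authors' deposited value table also holds intensity values, with a median of 28.4 in each column. Its differences had r = 0.998 with those of the scanner files over 29665 probes. Its normalization is not given in the sources used here. As alternatives, this table and quantile normalization gave nearly the same member differences (3.08 for Ier2 and 1.01 for Ier3 under each). Each also gave 63 genes at least 2-fold higher and 31 lower. With these equal counts and equal column medians, they may not be separate checks.

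Spots marked as controls or outliers were left out. Log2 signals were averaged per probe, less each array's 75th percentile. A probe was measured if at least 50% of its spots were well above background on both arrays, and a gene took its brightest measured probe. Areas were spots whose surroundings within 2 rows and columns had a median difference past 0.3, in groups of at least 4, widened by 2. Names were updated by accession for 27235 probes (RefSeq, GRCm38.p6).

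Members, lists and alternatives were chosen with earlier results of these data known. Named genes were members, relatives, the 3 genes of each list farthest from 0 outside the areas, cell type markers, and the genes adjacent in order to members past 2-fold. Alternatives concerned scaling, background (limma 3.58.1), value source, outliers, probe rule, filter and threshold. Scripts (Python 3.11.15, pandas 2.3.3) were tested on simulated data.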

Additional observations from a re-analysis of the deposited data

Results flagged for a closer look

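The RIKEN cDNA probe 4930447I22Rik, which belongs to no member and to no list, read 62.2 ± 7.09 in the GnRH array and 20.5 ± 4.55 in the vehicle array (scanner error), a log2 difference of 1.70 ± 0.36 (3.24-fold higher). It was singled out as a signal outside the members and lists that was above its level on the vehicle array. It lies at chr8:87187168-87187227 (mm9), 954 bases from the Ier2 probe on the same strand, on the side of higher coordinates. Its spot was well above background on each array, and the surrounding spots had a median log2 difference of -0.05. The signal is dim, and with normexp the difference was 0.60 and with no background correction 0.59, both under 2-fold. Whether the probe reads RNA of the Ier2 locus was not tested.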

How the results depend on the processing

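Across 9 other settings that give a value per gene, 72 member differences were recomputed. Of these, 2 moved by more than the scanner error (Ier2 with normexp and with no background correction) and 0 of the gene values changed sign. Many of the 72 could hardly move. No member spot was an outlier or lay in the areas, and 6 members have 1 probe, so a mean over probes leaves them unchanged. Scaling by the median shifts all genes alike. The count of 3 members at least 2-fold higher ran from 2 to 4 over 15 settings, with 2 where Ier3 was just under 2-fold or the threshold was 3-fold, and 4 at 1.5-fold. The setting without Btg3 and all values of 4930447I22Rik under alternatives were added with the data already seen. The 66 genes at least 2-fold higher became 45 without the areas, 46 with normexp and 47 with no background correction. They became 1259 with no filter on dim probes, 552 with the looser background call, 253 at 1.5-fold and 40 at 3-fold. Of genes at least 2-fold lower there were 28, against 14 without the areas, 12 with normexp, 12 without background correction, 12 under the stricter filter on dim probes, 760 when that filter was dropped, 311 with the looser background call, 187 at 1.5-fold and 13 at 3-fold. The filters, the thresholds and leaving out the areas change which genes are counted by construction. The cause of the other moves was not tested. Signal over background limits the dim probes, such as the dimmer one of Ier5. No paired analysis was possible because each group has 1 array.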
